A study of Mus musculus with 6 samples.

Results

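Split-hand/foot malformation is a birth defect in which the central digits are missing, and several unlinked stretches of the genome can cause it when deleted, duplicated or rearranged. The 7 genes described here lie at 3 of these loci. They were chosen by symbol from a list written with earlier results of these data in view, and Bhlha9 was put on it with its lower level in the Sp8 null libraries known. The differences of all 7 genes between genotypes are therefore given as descriptions, with no p. The fit over all genes includes them, and how many were past its threshold is stated beside the share over all genes. All 7 were found among the 49452 genes of the table, and 6 of them were among the 12133 genes tested, those that reached 1 FPKM (fragments per length of transcript and per depth of library) in 3 or more libraries.

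RNA was measured in forelimb bud ectoderm of mouse embryos at E10.5, the sheet of cells over the limb bud whose distal rim becomes the apical ridge. The groups were 3 Sp8 null and 3 wild-type embryos, with 1 library from the ectoderm of the 2 forelimbs of 1 embryo. Ectoderm had been freed with 0.25% trypsin for 20 min and forceps. The labels name the null allele Sp8-Cre-ERT2, obtain null embryos from crosses of Sp8+/- heterozygotes and wild-type embryos from C57BL/6 crosses, and give C57BL6J as the strain of both. The cross and the genotype cannot be told apart. Sp8 codes for a zinc finger protein of the Sp family that regulates transcription in limb ectoderm.

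BHLHA9 encodes a basic helix-loop-helix transcription factor of the early limb bud, and in people duplications that contain it occur in families with split hand and foot and missing long bones. The DNA of the other loci is known less for the genes it codes for than for what it does to a neighbour. Exons of DYNC1I1 act as limb enhancers of DLX5 and DLX6, which lie beyond the gene. The interval holding BTRC, POLL and FBXW4 adjoins FGF8, the growth factor of the apical ridge, and is duplicated in split-hand/foot malformation. The mouse mutation dactylaplasia is an insertion in or near Fbxw4.

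The 250 bases before the start of Bhlha9 are shown because its RNA differed most between the genotypes, and those of Dync1i1 because it had the lowest level of the 7 genes. They are RefSeq sequences of GRCm38.p6, 5′ to 3′ on the plus strand, chr11:76672220-76672469 for Bhlha9 and chr6:5725389-5725638 for Dync1i1. Capitals mark matches to GGGCGG, the GC box bound by Sp and Klf factors, and to CANNTG, the E-box bound by helix-loop-helix factors, on either strand.
Bhlha9: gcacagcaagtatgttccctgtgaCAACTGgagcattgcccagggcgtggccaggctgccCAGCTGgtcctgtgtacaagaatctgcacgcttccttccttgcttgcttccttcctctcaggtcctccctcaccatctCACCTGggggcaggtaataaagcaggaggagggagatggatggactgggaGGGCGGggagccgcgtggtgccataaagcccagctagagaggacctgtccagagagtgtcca
Dync1i1: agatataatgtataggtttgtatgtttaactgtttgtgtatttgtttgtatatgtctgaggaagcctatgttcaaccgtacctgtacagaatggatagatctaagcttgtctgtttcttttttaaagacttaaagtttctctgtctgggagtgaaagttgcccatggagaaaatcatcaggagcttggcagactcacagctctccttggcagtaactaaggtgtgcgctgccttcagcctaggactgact
The Bhlha9 window held 1 GC box, 62 bases before the start, and 3 E-boxes between 226 and 112 bases before it, none of which overlapped the GC box. Among 32851 windows of the same length in the table, 32.7% held at least 1 GC box and 12.2% held at least 3 E-boxes. Its GC content was 59.2%, against a median of 52.4% over all windows, and that of Dync1i1 was 40.8%. None of the other letters searched on both strands were in the Bhlha9 window: the homeodomain core TAATTA, found in 4.84% of all windows, the Tcf/Lef core CTTTGA, in 13.8%, and the CACC box CCACACCC, in 3.2%. The Dync1i1 window held none of the 5 motifs. Promoters were matched for 4 of the 7 genes. The Ywhae window held 2 GC boxes and 1 E-box at a GC content of 73.2%, though its RNA overlapped between genotypes. The windows of Abr held from 0 to 2 GC boxes and at most 1 E-box each. A GC box was thus not particular to Bhlha9, and its bearing on RNA level was not tested.

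Depth was known only in relative terms, from the step between low values, and ranged from 0.843 to 1.04 of that of wild-type embryo 1. Sp8, the check of the labels, was between 0.460 and 1.14 FPKM in the null libraries and between 8.35 and 13.5 FPKM in the wild-type libraries. Of the tested genes 829 were called, meaning a limma Benjamini-Hochberg adjusted p under 0.05, 204 of them higher and 625 lower in Sp8 null. The share of calls that were higher was 24.6%, and 37.4% or 42.0% under median-of-ratios or upper-quartile scaling. The count was 213 without wild-type embryo 2. The 10 surface ectoderm markers summed to between 692 and 911 FPKM in Sp8 null and between 815 and 903 FPKM in wild type, and none was at 0. The 11 limb mesenchyme markers summed to between 115 and 199 FPKM in Sp8 null and between 108 and 146 FPKM in wild type and none of them was at 0 in all libraries. Meis2 alone was between 52.0 and 74.5 FPKM. Of the 9 tested markers 2 were called. Msx1 was lower in Sp8 null (means 7.63 and 2.67 FPKM in wild type and null) and Lmx1b higher (5.95 and 13.7 FPKM), so the sum mixes opposite changes. The 7 erythroid markers summed to between 11.6 and 426 FPKM in wild type and between 62.5 and 163 FPKM in Sp8 null. The 8 endothelial and the 8 macrophage markers summed to at most 5.08 and 3.59 FPKM in any library.

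Bhlha9 was the member with the largest difference. Its gene (ENSMUSG00000044243; GRCm38, chromosome 11, 76672470 to 76673676, plus strand) is protein-coding, with 1 annotated transcript of 1207 nt that fills the whole gene. Its level was 27.8, 34.8 and 40.4 FPKM in wild-type embryos 1, 2 and 3, and 2.20, 1.29 and 3.14 FPKM in Sp8 null embryos 1, 2 and 3. The groups did not overlap, and the lowest wild-type library was 8.86 times the highest Sp8 null library. The means were 34.3 ± 6.28 FPKM in wild type and 2.21 ± 0.926 FPKM in Sp8 null (SD, n = 3 each), so the null level was 6.44% of the wild-type level. On the log2(FPKM + 1) scale, which understates differences of low genes, the fold change was -3.49 (SE 0.22). Among the tested genes the wild-type mean stood at percentile 86.9 and the null mean at percentile 18.96. RNA for Bhlha9 was still listed in each null library, at over 1 FPKM. In bulk ectoderm, fewer cells with the transcript and less transcript per cell cannot be told apart. The authors' deposited table gave means of 1464.56 for control and 94.47 for sample on its own normalized scale, which stand in a ratio of 15.5. The fold change in the authors' deposited table was -4.67, which is not that ratio, and how it was made was not stated.

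**Figure D1:**
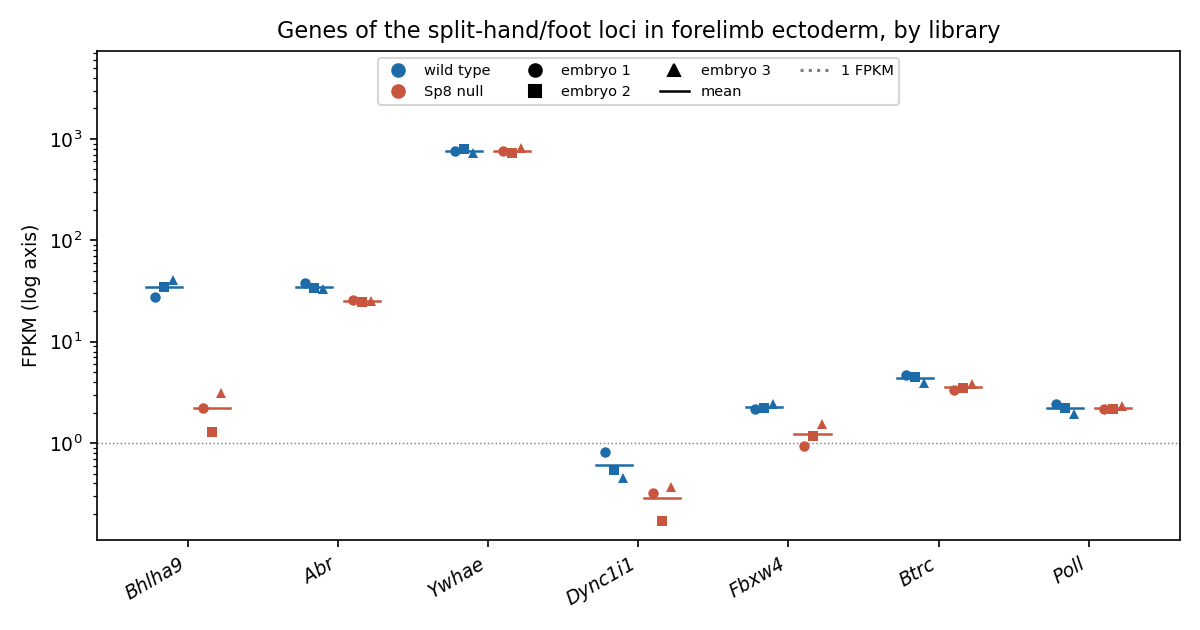
FPKM of the 7 locus genes (log axis) in the 3 wild-type (blue) and 3 Sp8 null (red) libraries; marker shape gives the embryo number, short lines the group means and the dotted line 1 FPKM. Bhlha9 is at 27.8 to 40.4 FPKM in wild type and 1.29 to 3.14 FPKM in Sp8 null, while Ywhae and Poll overlap between the genotypes.

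The order of the wild-type levels, per length of transcript, was Ywhae, Abr, Bhlha9, Btrc, Fbxw4, Poll and Dync1i1. Abr and Bhlha9 did not differ beyond their spread in wild type, at 35.0 ± 2.84 and 34.3 ± 6.28 FPKM, nor did Fbxw4 and Poll, at 2.27 ± 0.123 and 2.21 ± 0.264 FPKM (SD, n = 3 each). In Sp8 null the neighbours of Bhlha9 in that order were other genes. It stood beside Poll (2.22 ± 0.0908 FPKM) and below Btrc (3.54 ± 0.224 FPKM). Among the 6 tested members, 3 were past the threshold of the fit over all genes (Bhlha9, Abr and Fbxw4, each lower in Sp8 null), where 6.83% of all tested genes were called, 5.15% lower and 1.68% higher. Groups did not overlap for 4 of the 6, all lower, and for 29.8% of all tested genes, with 21.1% lower. The members were listed with this contrast known, so these counts are no test of them and nothing is read from them.

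Abr and Ywhae lie on the same side of Bhlha9. Abr encodes a relative of the BCR protein, and its gene (ENSMUSG00000017631; chromosome 11, 76416734 to 76622314, minus strand) starts 50.2 kb from the start of Bhlha9. Its level was 38.2, 33.7 and 33.0 FPKM in wild-type embryos 1, 2 and 3, and 26.1, 24.8 and 24.97 FPKM in Sp8 null embryos 1, 2 and 3. The groups did not overlap, and the null level was 72.2% of the wild-type level (25.3 ± 0.693 FPKM in Sp8 null, SD, n = 3; log2 fold change -0.45, SE 0.08). Its log2 fold change lay between -0.49 and -0.36 over 13 alternatives. It was past the threshold in 9 of them and not in 4. Abr was thus lower by a much smaller factor than Bhlha9, at a like wild-type level.

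Ywhae encodes the epsilon member of the 14-3-3 proteins, adaptors that bind phosphorylated partners (ENSMUSG00000020849; chromosome 11, 75732869 to 75765845, plus strand). It was the most abundant of the 7, at 761, 788 and 733 FPKM in wild-type embryos 1, 2 and 3 and 759, 721 and 808 FPKM in Sp8 null embryos 1, 2 and 3. The groups overlapped, with means of 761 ± 27.4 and 763 ± 43.7 FPKM (SD, n = 3 each, with a log2 fold change of 0.00, SE 0.07). Reads of 14-3-3 genes can be split with processed copies, so its level is uncertain to that extent. For Abr and Ywhae the fold changes in the authors' deposited table were -1.4 and 1.02.

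Genes around Bhlha9 that were not on the list were tested by position. Of the 45 tested genes with a start within 1.5 Mb of that of Bhlha9, 2 were called, or 4.44%, against 6.83% of all tested genes. Both called genes reached 1 FPKM in 1 group alone, so the filter kept them through the group where they are high, and nothing is read from their count. The other 43 genes had a median log2 fold change of -0.06, equal to that of all tested genes to 2 decimals. The lower gene was Gm26780, which lies inside the span of Abr on the other strand, starts 58.0 kb from Bhlha9, and shares 28 exonic bases with Abr. It was at 1.43, 1.33 and 1.78 FPKM in wild type and 0.302, 0.404 and 0.230 FPKM in Sp8 null, embryos 1 to 3 (log2 fold change -0.94, adjusted p = 0.0334 in limma with no filter on low values). Counting by strand was not stated, so reads of Abr and Gm26780 cannot be told apart where they overlap. The higher gene was 1700016K19Rik, at 672.6 kb, with 0.536 ± 0.113 FPKM in wild type and 2.35 ± 0.423 FPKM in Sp8 null (SD, n = 3 each, with a log2 fold change of 1.12, adjusted p = 0.0334 in limma with no filter on low values). On the far side, the nearest tested gene was Gosr1, a Golgi membrane-fusion gene 91.1 kb away, which did not pass (4.89 ± 0.213 against 4.32 ± 0.515 FPKM in wild type and Sp8 null, SD, n = 3 each, with a log2 fold change of -0.15, adjusted p = 0.416 in limma).

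**Figure D2:**
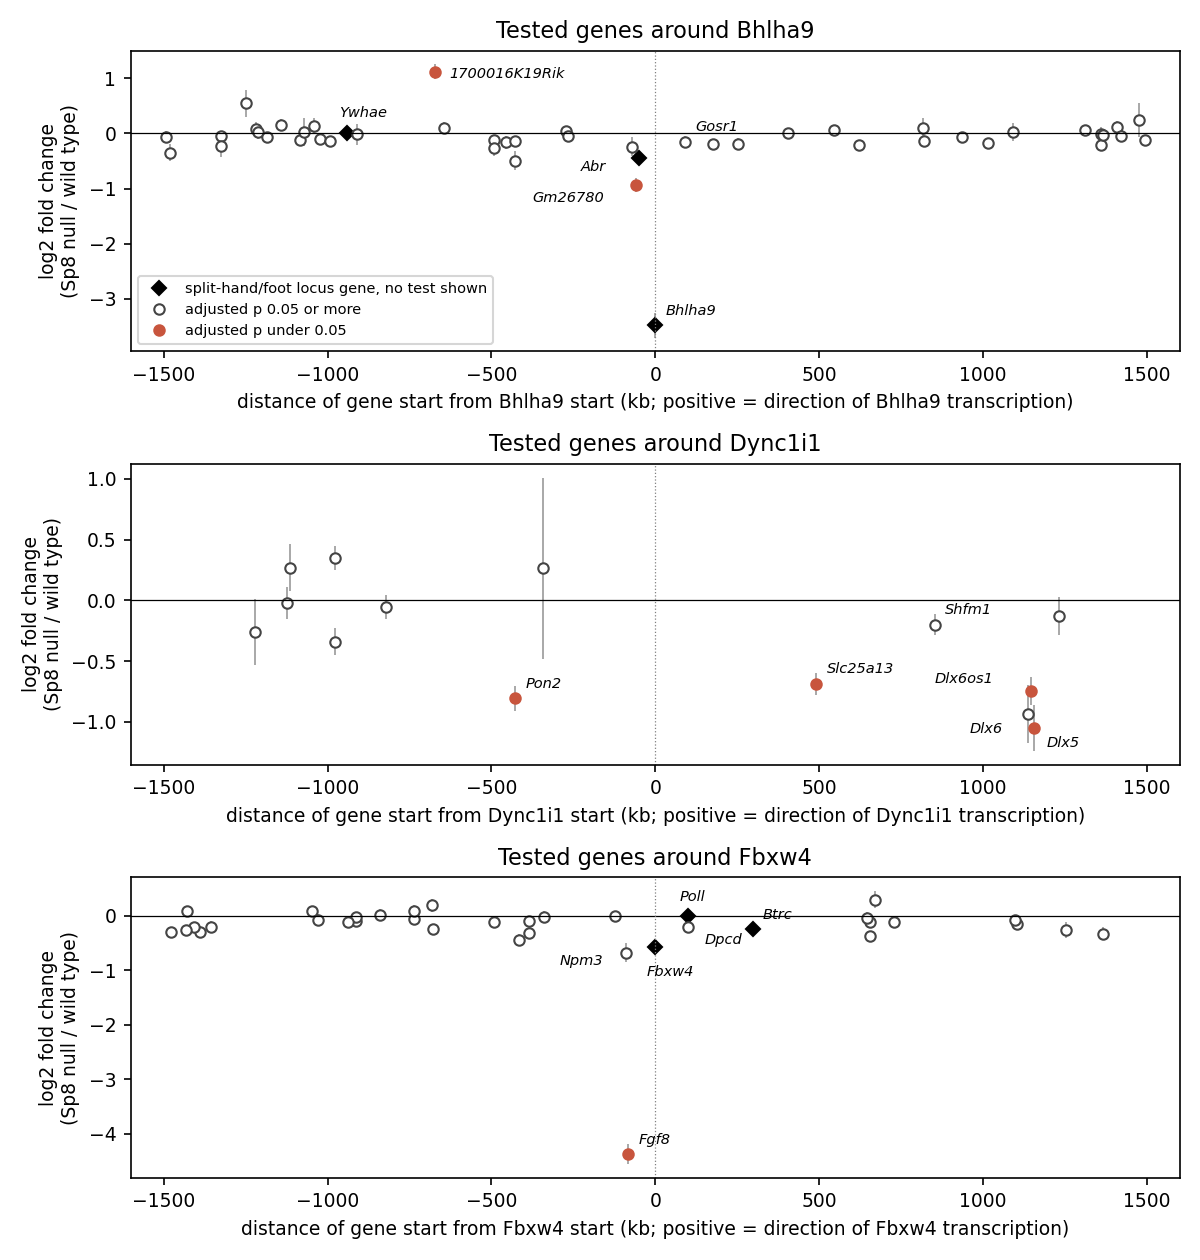
Log2 fold change (Sp8 null over wild type, on log2(FPKM + 1), bars 1 SE) of every tested gene within 1500 kb of the start of Bhlha9, Dync1i1 or Fbxw4, against distance in kb; black diamonds are the locus genes, shown without a test, filled circles have an adjusted p under 0.05 and open circles do not. Bhlha9 (-3.49) and Fgf8 (-4.38) stand far below the genes around them, and around Dync1i1 the filled circles are Pon2, Slc25a13, Dlx6os1 and Dlx5.

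Dync1i1 encodes an intermediate chain of cytoplasmic dynein, the motor that carries cargo towards microtubule minus ends (ENSMUSG00000029757; chromosome 6, 5725639 to 6028039, plus strand). It was under 1 FPKM in every library and was not tested. Its level was 0.826, 0.544 and 0.458 FPKM in wild-type embryos 1, 2 and 3, and 0.321, 0.170 and 0.366 FPKM in Sp8 null embryos 1, 2 and 3. The groups did not overlap, but the lowest wild-type library was only 1.25 times the highest null library. The means were 0.609 ± 0.193 and 0.286 ± 0.103 FPKM (SD, n = 3 each). With no filter on low values, where 1.23% of 27766 genes were called, its log2 fold change was -0.32 (SE 0.11). The authors' deposited table gave it means of 39.31 for control and 13.96 for sample.

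Of the 14 tested genes within 1.5 Mb of the start of Dync1i1, 4 were called, all lower in Sp8 null, of which Dlx6os1 reached 1 FPKM in wild type alone. Without it 3 of 13 were called, or 23.1%, against 6.83% of all tested genes called and 5.15% called lower. The shares over all tested genes still include genes that reached 1 FPKM in 1 group alone, so the sets are not alike. The median log2 fold change of the 13 was -0.20, against -0.06 over all tested genes. Dlx5 and Dlx6 are a pair of homeobox genes of the ectoderm and ridge. Dlx5, 1156.4 kb from the Dync1i1 start, was at 18.5, 19.7 and 15.0 FPKM in wild-type embryos 1, 2 and 3 and at 7.95, 5.98 and 10.7 FPKM in Sp8 null embryos 1, 2 and 3. The groups did not overlap, and Dlx5 fell by 1.05 on the log2 scale (SE 0.19; adjusted p = 0.0201 in limma). That call was lost without wild-type embryo 1, wild-type embryo 2 or Sp8 null embryo 1 (adjusted p of 0.0622, 0.0904 and 0.0652 in limma). It was also lost with no filter on low values (0.0934) and with the embryo number as a block (0.0589), 5 of 13 alternatives in all. Dlx6 measured 3.99, 2.66 and 1.60 FPKM in wild type and 1.10, 0.579 and 1.04 FPKM in Sp8 null in the same order of embryos, with a log2 fold change of -0.94 (SE 0.24) that did not pass (adjusted p = 0.061 in limma). It passed in 2 of 13 alternatives, without wild-type embryo 3 (-1.17, adjusted p = 0.0354 in limma) and with the first digit of each sample's name as a covariate (adjusted p = 0.0495 in limma).

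Between Dlx6 and Dlx5 starts Dlx6os1, the antisense transcript of Dlx6, which fell from 1.19 ± 0.0985 to 0.302 ± 0.0375 FPKM (SD, n = 3 each, with a log2 fold change of -0.75, adjusted p = 0.028 in limma with no filter on low values). With the filter, which it passed through wild type alone, its call was lost with the embryo number as a block (adjusted p = 0.0591 in limma). Its reads cannot be told apart from those of Dlx6 where exons overlap. The other called genes flank Dync1i1 itself. Slc25a13, a mitochondrial aspartate/glutamate carrier starting 491.5 kb away towards the Dlx genes, was at 11.4, 11.1 and 10.2 FPKM in wild type and 6.97, 5.83 and 6.45 FPKM in Sp8 null, embryos 1 to 3 (log2 fold change -0.69, SE 0.09, adjusted p = 0.00624 in limma). Pon2, a paraoxonase gene 427.2 kb away on the other side, was at 15.9, 19.6 and 19.2 FPKM in wild type and 10.3, 9.11 and 10.49 FPKM in Sp8 null (log2 fold change -0.81, SE 0.10, adjusted p = 0.00516 in limma). Shfm1, a small proteasome and BRCA2-binding protein gene that lies between Slc25a13 and the Dlx genes and carries the name of the disease, did not pass (15.4 ± 1.35 FPKM in wild type and 13.3 ± 0.650 FPKM in Sp8 null, SD, n = 3 each, with a log2 fold change of -0.20, adjusted p = 0.216 in limma). Pon2 and Slc25a13 passed under each of the 13 alternatives run.

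Fbxw4, Btrc and Poll stand together on chromosome 19. Fbxw4 encodes an F-box protein with WD40 repeats (ENSMUSG00000040913; 45578254 to 45660312, minus strand). Its level was 2.17, 2.23 and 2.41 FPKM in wild-type embryos 1, 2 and 3, and 0.940, 1.17 and 1.55 FPKM in Sp8 null embryos 1, 2 and 3. The groups did not overlap, and the null mean of 1.22 ± 0.310 FPKM was 53.7% of the wild-type mean (SD, n = 3; log2 fold change -0.57, SE 0.13). Its log2 fold change lay between -0.87 and -0.47 over 13 alternatives. It was past the threshold in 2 of them and not in 11. Both scalings, no filter on low values and a pseudocount of 0.1 were among the 11. Of its exonic bases 21.4% overlap a gene on the other strand, listed as Dpcd in the table and Gm17018 in GENCODE M21. The authors' deposited table gave it control and sample means of 44.15 and 28.56. Per FPKM and kb of longest transcript the authors' deposited control mean of Fbxw4 came to 9.40, against a median of 30.9 and a 5th percentile of 9.01 over 11905 tested genes. The cause of its low value was not tested.

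Btrc encodes beta-TrCP, the F-box protein that marks phosphorylated beta-catenin and IkB for ubiquitin ligation (ENSMUSG00000025217; 45363734 to 45530013, plus strand). It was at 4.74, 4.46 and 3.91 FPKM in wild-type embryos 1, 2 and 3 and at 3.35, 3.48 and 3.79 FPKM in Sp8 null embryos 1, 2 and 3. The groups just failed to overlap, the lowest wild-type library being 1.03 times the highest null library, and the log2 fold change was -0.24 (SE 0.10). Poll encodes DNA polymerase lambda, a repair polymerase (ENSMUSG00000025218; 45552275 to 45560531, minus strand). It was at 2.45, 2.24 and 1.93 FPKM in wild type and 2.16, 2.17 and 2.32 FPKM in Sp8 null, embryos 1 to 3, and the groups overlapped (log2 fold change 0.01, SE 0.11). Of the 7 locus genes, 5 did not overlap between groups and were lower in Sp8 null, the untested Dync1i1 among them, where 21.1% of tested genes did so. Nothing is read from this count. Ywhae and Poll differed by under 1% between group means.

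Around Fbxw4, 1 of 34 tested genes outside the list was called, or 2.94%, and the median log2 fold change was -0.11. That gene was Fgf8, whose start lies 82.6 kb upstream of that of Fbxw4. It was at 36.0, 31.3 and 30.2 FPKM in wild-type embryos 1, 2 and 3 and at 0.460, 0.320 and 1.15 FPKM in Sp8 null embryos 1, 2 and 3, and fell by 4.38 on the log2 scale (SE 0.18; adjusted p = 2.21e-05 in limma). The wild-type mean was 50.4 times the null mean for Fgf8 and 1.86 times for Fbxw4. Dpcd, which starts beside Poll, did not pass (8.30 ± 1.04 FPKM in wild type and 7.07 ± 0.745 FPKM in Sp8 null, SD, n = 3 each, with a log2 fold change of -0.20, adjusted p = 0.335 in limma). Lbx1, a homeobox gene of migrating muscle precursors in the same interval, was at most 0.0608 FPKM in any library. Over the 3 loci, 7 of 93 tested genes off the list were called, or 7.53%, against 6.83% of all tested genes, and 3 of the 7 had reached 1 FPKM in 1 group alone. The count was 4 without wild-type embryo 1 and 4 without wild-type embryo 2.

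A list of 12 disease genes was then compared. It held genes mutated in split-hand/foot malformation or in syndromes that include it, and genes listed for their place at its loci. Dlx5, Dlx6, Shfm1, Fgf8 and Lbx1 were among them, and Fgf8 and Dlx5 were also counted above as called near the loci. Of the 10 tested, 4 were called, or 40% against 6.83% of all tested genes, with 3 lower (Fgf8, Dlx5 and Zak) and 1 higher (Wnt10b). Their median log2 fold change was -0.28, against -0.06 over all tested genes. The count was 2 without wild-type embryo 2, when Dlx5 and Zak were lost. The list was chosen with results of these libraries known, so its count is not independent evidence of a direction.

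Wnt10b, a Wnt ligand whose recessive mutations cause the malformation, was at 4.26, 4.12 and 4.32 FPKM in wild-type embryos 1, 2 and 3 and at 10.6, 14.2 and 13.3 FPKM in Sp8 null embryos 1, 2 and 3. It rose from 4.23 ± 0.104 to 12.7 ± 1.89 FPKM (SD, n = 3 each), with no overlap between groups (log2 fold change 1.38, SE 0.11, adjusted p = 0.00067 in limma), the opposite direction to Bhlha9, Dlx5 and Fgf8. It passed under each of the 13 alternatives run. Zak, a stress-activated kinase of the MAP3 kinase family now called Map3k20, was at 13.3, 14.01 and 14.6 FPKM in wild type and 9.24, 9.45 and 10.4 FPKM in Sp8 null, embryos 1 to 3. It fell by 0.49 on the log2 scale (SE 0.08; adjusted p = 0.0144 in limma), and its call was lost without wild-type embryo 2 or 3 (adjusted p of 0.0775 and 0.0547 in limma) and with the embryo number as a block (0.0614).

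The other tested disease genes did not pass. Trp63, the transcription factor of stratified epithelia, was at 131 ± 10.97 FPKM in wild type and 125 ± 12.5 FPKM in Sp8 null (SD, n = 3 each, with a log2 fold change of -0.08, SE 0.10, adjusted p = 0.682 in limma). Cdh3, the P-cadherin gene, was at 61.2 ± 4.71 and 69.97 ± 6.57 FPKM (SD, n = 3 each, with a log2 fold change of 0.19, SE 0.09, adjusted p = 0.262 in limma). Fgfr1 and Hoxd13 varied widely within each genotype. Fgfr1, a receptor of fibroblast growth factors, ranged from 4.80 to 9.70 FPKM in wild type and from 6.19 to 12.5 FPKM in Sp8 null (log2 fold change 0.24, SE 0.28). Hoxd13, a distal limb homeobox gene, ranged from 0.905 to 4.36 FPKM and from 0.582 to 2.85 FPKM (log2 fold change -0.35, SE 0.43). In Sp8 null both were highest in embryo 2, the library with the highest sum of mesenchyme markers in that group (199 FPKM), and in wild type both were highest in embryo 1, again the library with the highest sum (146 FPKM). The part of mesenchymal RNA in these values was not tested. Evx2 was at most 0.0397 FPKM in any library.

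**Figure D3:**
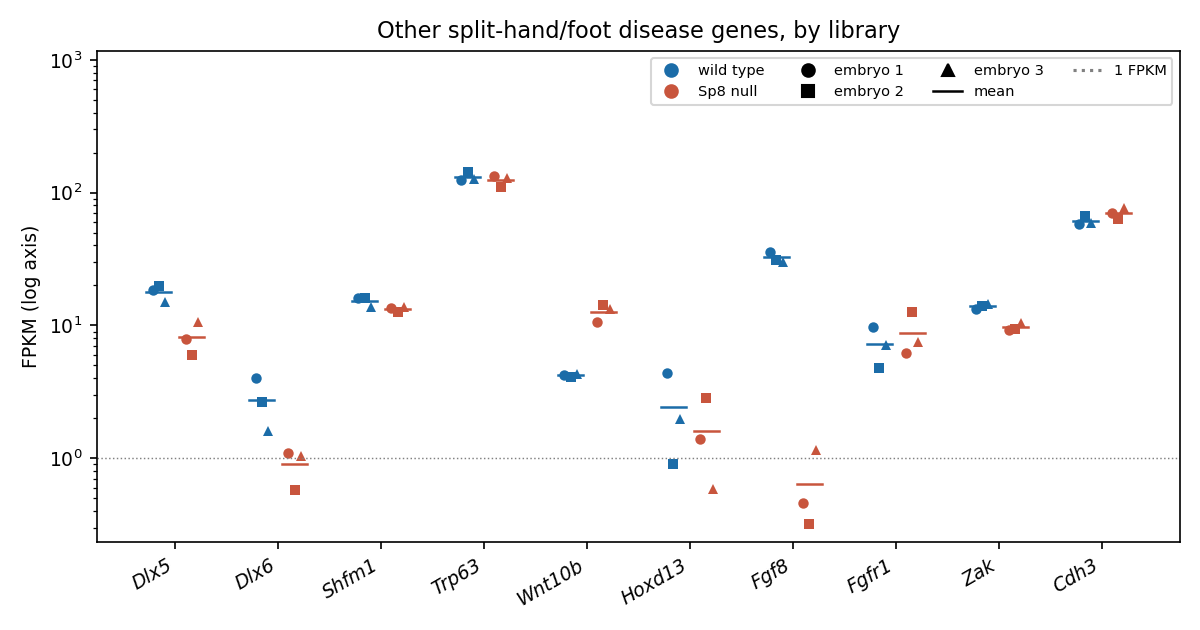
FPKM (log axis) of the 10 tested split-hand/foot disease genes outside the listed members, by library; blue is wild type, red Sp8 null, marker shape the embryo number, short lines the group means and the dotted line 1 FPKM. Fgf8 (32.5 against 0.645 FPKM) and Dlx5 (17.7 against 8.20 FPKM) are lower in Sp8 null, Wnt10b (4.23 against 12.7 FPKM) is higher, and Hoxd13 and Fgfr1 spread widely within both groups.

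Helix-loop-helix factors such as BHLHA9 act as dimers with E proteins, and Id proteins, which lack the basic region, bind E proteins and keep them off DNA. Of the 7 E protein and Id genes, all tested, 4 were called, all of them Id genes and all lower in Sp8 null, of which Id4 reached 1 FPKM in wild type alone. Without Id4, 3 of 6 were called, against 6.83% of all tested genes called and 5.15% called lower, shares that still include such genes. The median log2 fold change of the 6 was -0.33, against -0.06 over all tested genes. Id1 was at 12.5, 11.6 and 8.62 FPKM in wild-type embryos 1, 2 and 3 and at 3.20, 3.38 and 3.27 FPKM in Sp8 null embryos 1, 2 and 3 (log2 fold change -1.46, SE 0.13, adjusted p = 0.00113 in limma). Id3 fell from 34.8 ± 5.74 to 13.7 ± 2.81 FPKM (SD, n = 3 each, with a log2 fold change of -1.29, adjusted p = 0.00617 in limma). Id4 was at 1.37 ± 0.233 FPKM in wild type and 0.473 ± 0.194 FPKM in Sp8 null (SD, n = 3 each), with a log2 fold change of -0.69 that did not pass with no filter on low values (adjusted p = 0.101 in limma). With the filter its call was lost in 6 of 10 alternatives, among them those without Sp8 null embryo 1 or 3 (adjusted p of 0.0954 and 0.0764 in limma). Id2, named after its value was seen, fell from 24.2 ± 4.50 to 14.3 ± 2.39 FPKM (adjusted p = 0.0384 in limma, log2 fold change -0.72). The E protein genes Tcf3, Tcf4 and Tcf12 had log2 fold changes of 0.07, 0.34 and 0.26 and did not pass (adjusted p of 0.778, 0.244 and 0.0988 in limma).

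Other helix-loop-helix genes of the limb bud were mostly below the filter. Of 13 listed, 4 were tested and none was called in limma, with 1 at an unadjusted p under 0.05. That gene was Twist2, a mesenchymal factor, at 1.18, 0.0838 and 0.701 FPKM in wild-type embryos 1, 2 and 3 and 2.18, 4.14 and 2.10 FPKM in Sp8 null embryos 1, 2 and 3 (log2 fold change 1.22, SE 0.29, adjusted p = 0.052 in limma). It passed in 2 of 13 alternatives, without wild-type embryo 1 (1.45, adjusted p = 0.0469 in limma) and with failed estimates left out (0.0487). Twist2 was highest in each group in the library with the highest sum of mesenchyme markers, whose part in it was not tested.

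The complexes and families of the other members were read from lists. Of 18 tested dynein, dynactin and associated genes none was called. Their median log2 fold change was -0.03, and 1 gene, the light chain Dynll1, had an unadjusted p under 0.05 (-0.21, SE 0.08, adjusted p = 0.153 in limma). None of the 6 other 14-3-3 genes was called, with a median of -0.07 and 1 gene, Ywhag, at an unadjusted p under 0.05 (-0.20, SE 0.08, adjusted p = 0.193 in limma). None of 8 tested polymerase and end-joining genes related to Poll was called, with a median of -0.09 and 1 gene at an unadjusted p under 0.05, Xrcc6, a subunit of the Ku complex (-0.48, SE 0.12, adjusted p = 0.0591 in limma), which passed without Sp8 null embryo 3 (-0.61, adjusted p = 0.0189 in limma). Of 11 tested F-box and SCF ligase genes, with their targets Ctnnb1 and Nfkbia, 1 was called, or 9.09% against 6.83% of all tested genes. It was Skp1a, the adaptor that joins F-box proteins to the ligase. It was at 235 ± 7.53 FPKM in wild type and 181 ± 16.5 FPKM in Sp8 null (SD, n = 3 each, with a log2 fold change of -0.38, adjusted p = 0.0343 in limma), and its call was lost in 10 of 13 alternatives, both scalings and 5 of the 6 fits that left out 1 library among them.

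The pattern of Bhlha9 over the 6 libraries was compared with the 281 tested genes outside the list that had a log2 fold change of at least 1 in size. Likeness was measured as Pearson's r of log2(FPKM + 1) over 6 libraries, with no p, since the genotypes form separate clusters and the choice by fold change makes r high. The most like gene was Sp8 itself (0.999), followed by the thrombospondin gene Thbs1 (0.998), S100a6 (0.998), Lmo7 (0.997) and Colec12 (0.996). Bhlha9 and Sp8 had the same order of libraries within each genotype. In wild type both were lowest in embryo 1 and highest in embryo 3, and in Sp8 null both were lowest in embryo 2 and highest in embryo 3. The ratio of Bhlha9 to Sp8 FPKM was 3.33, 3.17 and 2.997 in wild-type embryos 1, 2 and 3 and 2.87, 2.80 and 2.77 in Sp8 null embryos 1, 2 and 3. The ratio was thus between 2.77 and 3.33 while Bhlha9 itself ranged from 1.29 to 40.4 FPKM. It did not overlap between genotypes, being higher in wild type. Across genotypes a like ratio follows from like falls, as the wild-type means were 15.5 (Bhlha9) and 13.9 (Sp8) times the null means. Sp8 is the gene disrupted in the null embryos, and the source of its remaining reads was not tested. With 3 libraries in a genotype, a relation within a genotype could be tested only weakly, and it was not tested. Sp8 null embryo 2, lowest in both genes, also had the lowest sum of surface ectoderm markers (692 FPKM) and the highest sum of mesenchyme markers (199 FPKM), whose part in these values was not tested.

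**Figure D4:**
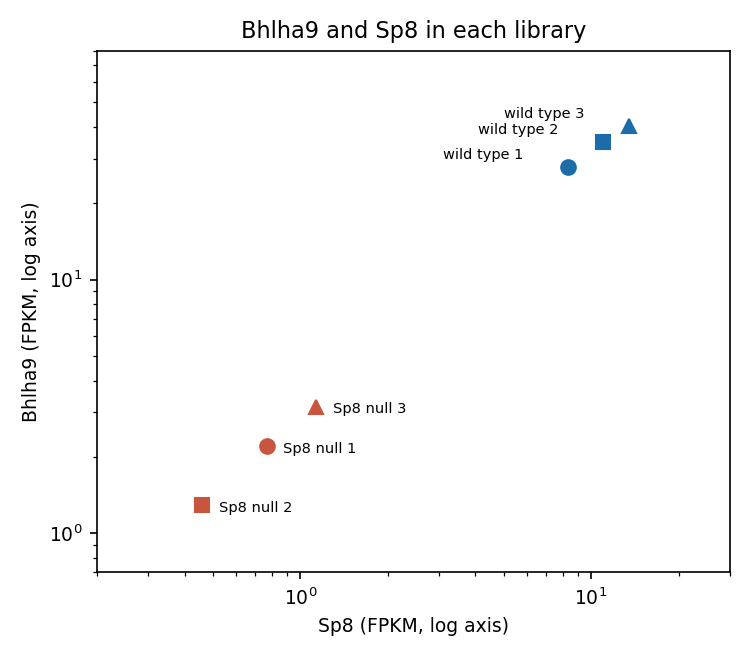
FPKM of Bhlha9 against FPKM of Sp8 in each of the 6 libraries (both axes log); blue is wild type, red Sp8 null, and marker shape the embryo number. The libraries of each genotype keep the same order in both genes, with Bhlha9 between 2.77 and 3.33 times Sp8.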

How the data were processed

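The authors deposited FPKM for 49452 genes in 6 libraries, with Ensembl 87 gene models per the file headers. Per the submitters' processing notes, FastQC, SAMtools, TopHat2, DESeq2, Cufflinks and GRCm38 were used, and their roles are not given in the sources used here. The authors' deposited table also held group means (a normalized signal), a signed fold-change score and a p-value, whose test was not stated. These serve here as a description alone.

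The 12133 genes that reached 1 FPKM in 3 or more libraries were fitted as log2(FPKM + 1) with limma 3.58.1 in R 4.3.3 (genotype only, mean-variance trend), with two-sided p-values adjusted by Benjamini-Hochberg over all tested genes and a threshold of 0.05. The fit was tested on simulated data. The members, lists and the rule for named genes were chosen with earlier results of these data known. Named genes were the 7 members, Sp8, the tested disease genes, called genes near each locus and the nearest tested gene beyond Bhlha9, up to 3 called genes (or that with the smallest p) of each list, and the 5 genes most like Bhlha9. Id2, Dpcd, Tcf3, Tcf4 and Tcf12 were named outside it, after their values were seen. The genes of 1 related list are not reported here, though the counts over all related lists include them. Embryos were separate animals. Coordinates are from GENCODE M21 (GRCm38), which held 49109 of the identifiers, matched by Ensembl identifier. Whole reads could not be recovered, so no counting interval is given and the depth is relative. The same-numbered embryos of the groups did not deviate together (correlations -0.16, -0.14 and -0.07), so the numbers were not taken as pairs.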

Additional observations from a re-analysis of the deposited data

How the results depend on the processing

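Of 482 values of 38 single genes under 13 alternatives, 416 stayed on their side of the threshold in limma, 61 were no longer past it, 5 passed it newly and no called gene changed sign. Only called genes can be lost, and the 482 values include genes that were not called. They also include Thbs1, S100a6, Lmo7 and Colec12, chosen among genes with large differences, which passed in all 13. The 416 is thus no measure of how stable the calls were. Fgfr1, Hoxd13, Trp63, Poll and Ywhae, none of them past the threshold, changed sign under 1 or 2 alternatives each. The Bhlha9 log2 fold change of -3.49 was -3.97 with a pseudocount of 0.1 and lay between -3.69 and -3.26 with 1 library left out. The 829 calls became 342 with no filter on low values and 545 with the first digit of each sample's name (4 or 5) as a covariate, and from 213 to 665 with 1 library left out. With the embryo number as a replicate block, which the data do not back as a pairing, the calls were 328, those of the 6 other members 0, of the disease genes 2 and of the related lists 4. The 2 calls among the 6 other members became 1 with a pseudocount of 0.1, with no filter, with that digit as a covariate and under either scaling, and from 0 to 2 with 1 library left out. The 4 disease gene calls ranged from 2 to 4, the 7 calls near the loci from 4 to 7 and the 12 calls of the related lists from 5 to 10 with 1 library left out, and the last were 5 with no filter. Smaller fits have fewer samples; otherwise the cause was not tested. Depth is known only in relative terms, so the precision of Dync1i1, under 1 FPKM throughout, is limited to the spread of 3 libraries a group.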
